A study of Mus musculus with 11 samples.

Results

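The 41 genes described here carry out or prepare the copying of DNA in S phase, and each encodes a replication factor, an enzyme of deoxynucleotide supply or a regulator of entry into S phase. They were listed by name, and every probe set that the platform annotation gives exactly 1 of these symbols was taken, which gave 91 probe sets of the 45101 on the array. All 41 genes were measured, among 18193 genes in all. Each gene is described through 1 probe set, that with the largest standard deviation over the 11 arrays, and 32 of the 41 had more than 1 to choose from.

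The arrays held RNA of BALB/cA mouse CD4+ T cells that carried an empty retroviral vector or 1 of 3 forms of FoxP3, the forkhead transcription factor of regulatory T cells. Naive CD4+ CD25- CD45RB high cells were sorted from lymph nodes and spleen, activated with anti-CD3e at 0.5 µg/ml, IL-2 at 10 ng/ml and irradiated spleen cells (20 Gy) without T cells, and exposed to virus by spin infection 24 h after that. All groups therefore shared activation, IL-2 in the medium, infection and GFP, and on day 7 the CD4+ cells with high GFP were taken by sorting. The groups were mock (the MIGR1 vector alone, 3 arrays), WT FoxP3 (3 arrays), A384T FoxP3 (3 arrays) and R397W FoxP3 (2 arrays), where A384T and R397W are substitutions in the DNA-binding forkhead domain that are known from the human autoimmune disease IPEX. FoxP3 was expressed from a retrovirus in cells that were not regulatory T cells when they were sorted, and no age of the mice was at hand. The titles number the arrays 1 to 3 within a group (1 and 2 for R397W), and below values are listed in that order. Nothing in the labels tells whether arrays of 1 group stand for different mice or cultures. The p-values therefore rest on a spread between arrays that may be technical.

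Every value is on a log2 scale whose 0, at each probe set, is the middle one of the 3 mock arrays. Differences between arrays can be read from it, but expression levels, detection above background and comparisons between genes cannot, so the labelled cell type could not be checked by the level of its markers. The median over all genes lay between -0.03 and 0.01 on every array. The single Foxp3 probe set lay between -0.39 and 0.33 on all 11 arrays, at -0.07, 0 and 0.11 with WT FoxP3. It is not known here whether its probes match the transduced cDNA, so it checks no label, and the groups rest on the titles. The number of arrays limits the precision. The standard error (SE) of a difference between groups of 3 had a median of 0.31 over the replication genes and 0.16 over all genes.

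Replication begins when the origin recognition complex, Cdc6 and Cdt1 load the ring of MCM proteins onto DNA in G1, the step called licensing. At the start of S phase, Mcm10, Cdc45 and the GINS complex turn that ring into an active helicase. DNA polymerase alpha with primase then lays down primers, and polymerases epsilon and delta extend them on the clamp PCNA. In T cells these genes are switched on after activation, when E2F factors are released from the retinoblastoma protein, and they fall again when cells return to rest.

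Most of the replication genes had higher values with WT FoxP3 and with A384T FoxP3 than in mock cells, but the size of the difference varied so much between arrays of a group that few single genes passed the test. The difference of WT from mock was above 0 for 36 of the 41 genes, with a median of 0.31, against 8440 of 18193 genes and a median of -0.02 over all genes. With A384T it was above 0 for 33 of 41 (median 0.40, against -0.01 over all genes), and with R397W for 30 of 41 (median 0.10, against 0). In limma with 1 mean per group, and Benjamini-Hochberg adjustment over all genes at 0.05, Mcm5 was the 1 member called in WT over mock, where 3.62% of all genes were called. Mcm5 was also the 1 member called in A384T over mock, where 3.17% of all genes were called. A share of 1 in 41 lies near these backgrounds. RNA of a sorted population does not show whether fewer cells of a type or less RNA per cell gives a lower value.

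**Figure D1:**
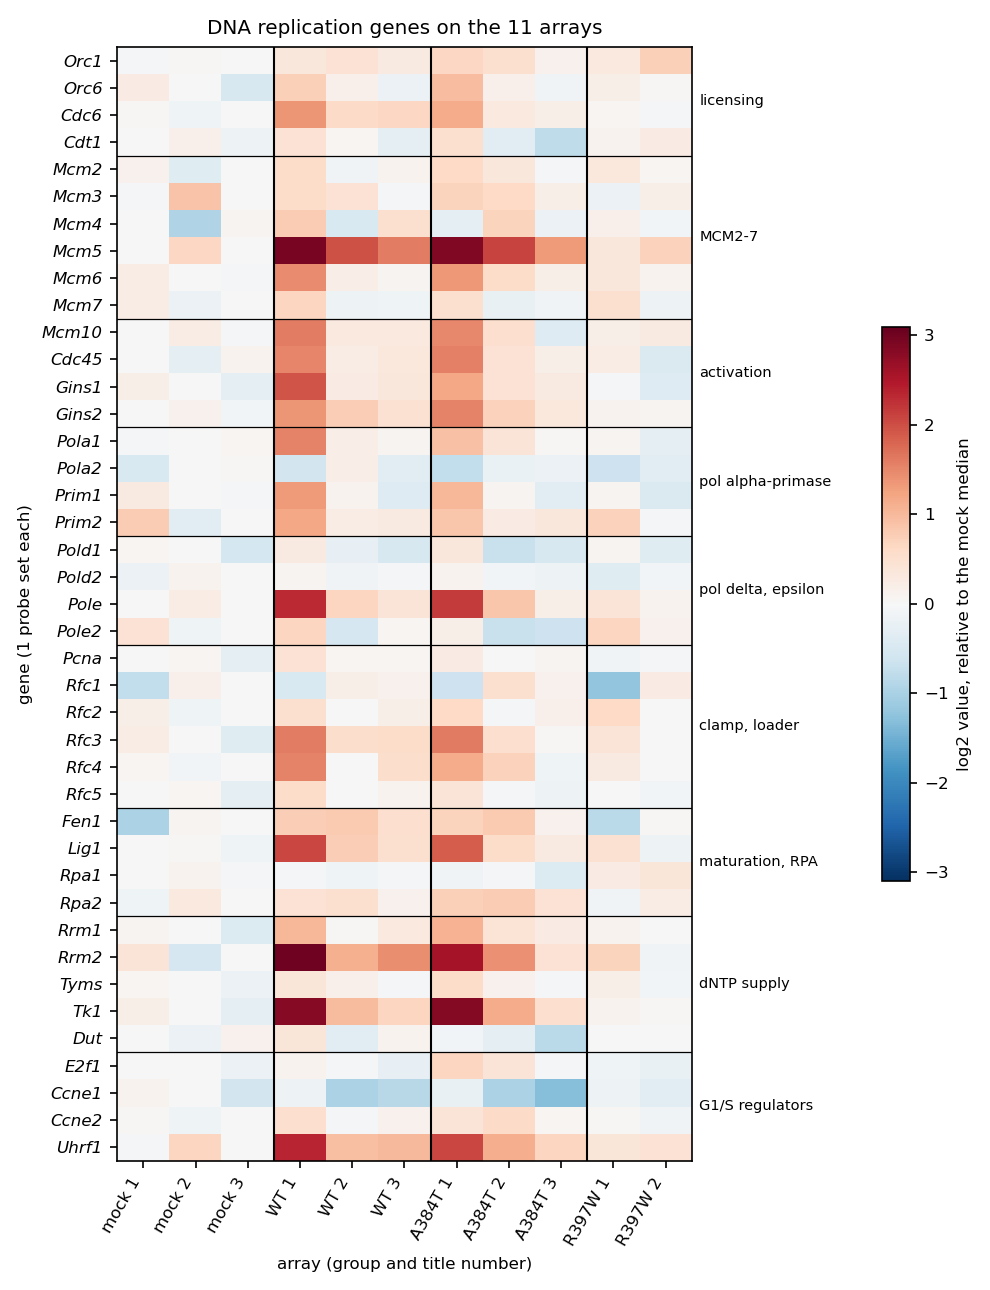
Log2 value of each of the 41 replication genes (rows, grouped by role) on each of the 11 arrays (columns, grouped by FoxP3 form and title number), relative to the mock median, with red above and blue below it. The columns WT 1 and A384T 1 hold the highest value of 32 of the 41 genes, and Mcm5, Rrm2, Tk1 and Uhrf1 are above the mock median on all 6 WT and A384T arrays.

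Arrays with the same title number deviated together, and a second fit held the title number as a block, so that each array is compared with arrays of the same number. The block assumes that a number shifts a gene equally in every group. Many replication genes did not follow this, as the gaps within groups given below show, and a shift that differs between groups was not fitted. The blocked results of these genes rest on that assumption. This replicate block lowered the median residual standard deviation of the replication genes from 0.436 to 0.263, and that of all genes from 0.197 to 0.157. With it, 10 of the 41 genes were called in WT over mock, all higher (10.2% of all genes), namely Cdc6, Fen1, Gins1, Gins2, Lig1, Mcm5, Rfc3, Rrm2, Tk1 and Uhrf1. Also 10 were called in A384T over mock (10.1% of all genes), of which Fen1, Gins2, Lig1, Mcm5, Rfc3, Rpa2, Rrm1, Rrm2 and Tk1 were higher and Ccne1 was lower. In R397W over mock, 0 members were called by either fit (0% of all genes). An unadjusted p under 0.05 was found for 2 members in each fit, where 306 and 663 of the 18193 genes had one. In WT and A384T over mock 2279 and 2341 of all genes had one, and 3849 and 3961 with the block. Below, "called" without further words means the fit without the block, and blocked results are named as such.

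The blocked counts leaned on single arrays. In WT over mock the 10 members became 3 without WT 1, 5 without WT 3 and 5 without mock 1, where 6.22%, 6.59% and 6.81% of all genes were called. In A384T over mock the 10 became 3 without A384T 1 and 3 without mock 1, against 6.03% and 6.31% of all genes. A count of 3 of 41 lies near these backgrounds. Without all 4 arrays numbered 1, the blocked fit called Mcm5 and Tk1 in each of these comparisons and no other member, against 3.53% and 2.8% of all genes.

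Around the start sites, 13 of the 34 replication genes with a promoter entry held a consensus site for E2F, the factor family that drives S phase genes. The windows were RefSeq promoters of build GRCm38.p6, 250 bases before to 50 bases after the start. The letters searched were TTTNNCGC, with each N being C or G, on both strands, where matches on opposite strands may overlap. Of 27025 genes with such a window, 704 (2.60%) held a match, against 38.2% of the 34. The motif was chosen because the members are known E2F targets, so the larger share is no independent result. Mcm4, Prim2, Gins2, Rfc2, Pole, Ccne2 and Gins1 were not listed in the promoter table. The sites of Mcm5, Rfc3, Lig1, Cdc6 and Uhrf1 are shown because these 5 genes were called in WT over mock with the block. Those of Mcm7 and Pold1 are examples of genes with a difference close to 0 (0.11 and 0.01). Mcm3, Cdt1 and Pole2 also held a match and had differences close to 0 (0.04, 0.07 and -0.04), and their sites are not shown. Each site shown is printed 5′ to 3′ on the strand of its gene, with the matched bases in capitals.
Mcm5: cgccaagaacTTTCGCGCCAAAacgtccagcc
Rfc3: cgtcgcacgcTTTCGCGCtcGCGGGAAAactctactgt
Lig1: gccaaagtgcGCGCGAAAtctgtgtggc
Cdc6: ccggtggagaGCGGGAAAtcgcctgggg
Uhrf1: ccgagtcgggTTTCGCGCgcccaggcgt
Mcm7: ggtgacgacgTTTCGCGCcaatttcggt
Pold1: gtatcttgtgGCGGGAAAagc
They lie at chr8:75109346-75109377 on the + strand for Mcm5, chr5:151651191-151651228 on the - strand for Rfc3, chr7:13278842-13278869 on the + strand for Lig1 and chr11:98908003-98908030 on the + strand for Cdc6. Those of Uhrf1 (chr17:56304118-56304145, + strand), Mcm7 (chr5:138171850-138171877, - strand) and Pold1 (chr7:44548766-44548786, - strand) follow the same layout. In Mcm5 the capitals are 2 overlapping matches, 1 on each strand, and in Rfc3 they are 2 separate matches. The Mcm7 window held a further match, which is not shown. The 13 genes with a match had a median difference of WT from mock of 0.52 (-0.04 to 1.95), and the 21 with a window and no match had 0.27 (-0.50 to 1.90), so the ranges overlapped almost fully. The same medians in A384T over mock were 0.45 and 0.38. With the block, 5 of the 13 and 3 of the 21 were called in WT over mock (10.2% of all genes). In A384T over mock these counts were 3 and 6 (10.1% of all genes). Mcm6 held 3 matches and was called by neither fit in these comparisons. Rrm2 and Tk1, which were among the genes with the largest differences, held no match in these windows, nor did Fen1.

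Licensing genes were represented by Orc1 and Orc6, subunits of the origin recognition complex, and by the loaders Cdc6 and Cdt1. Of the 4, limma called 0 in WT or A384T over mock (2 and 1 at an unadjusted p under 0.05), and Cdc6 was called in WT over mock with the block. Cdc6 stood at 0.04, -0.13 and 0 on the mock arrays, at 1.38, 0.59 and 0.63 with WT FoxP3, at 1.16, 0.30 and 0.17 with A384T and at 0.07 and -0.05 with R397W. All WT and A384T arrays lay above all mock arrays, and number 1 was the highest in each of these 2 groups. The difference of WT from mock was 0.89 ± 0.27 (SE; 1.86-fold, limma adjusted p = 0.134, and 0.00748 with the replicate block, lost without WT 1 at 0.0552).

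Orc1 stood at -0.05, 0.03 and 0 in mock, at 0.35, 0.46 and 0.29 with WT FoxP3, at 0.63, 0.50 and 0.14 with A384T and at 0.31 and 0.73 with R397W. It was the licensing gene whose values were above all mock arrays in each of the 3 FoxP3 groups, including R397W, and WT 1 was not the highest of its group. The differences from mock were 0.37 ± 0.15, 0.43 ± 0.15 and 0.53 ± 0.17 for WT, A384T and R397W, with limma adjusted p = 0.32, 0.21 and 1, and 0.121, 0.0667 and 0.999 with the block. Its other probe set was at -0.03 in WT over mock. Orc6 (0.31 ± 0.31 in WT over mock) and Cdt1 (0.07 ± 0.29) overlapped with mock in the WT, A384T and R397W groups.

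The MCM2-7 helicase unwinds the double strand ahead of the fork, and of its 6 subunits only Mcm5 was called. Mcm5 stood at 0, 0.65 and 0 in mock, at 2.95, 1.97 and 1.58 with WT FoxP3, at 2.88, 2.10 and 1.32 with A384T and at 0.35 and 0.71 with R397W. The 6 WT and A384T arrays lay above all mock and R397W arrays, and mock 2 was the highest mock array. In WT over mock Mcm5 rose 3.86-fold (1.95 ± 0.42, limma adjusted p = 0.0311, and 0.00141 with the block). In A384T over mock it rose 3.69-fold (1.88 ± 0.42, adjusted p = 0.0409, and 0.00191 with the block).

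The unblocked Mcm5 call in WT over mock was lost in 6 of 11 fits that each left out 1 array, those without mock 1 (adjusted p = 0.104), mock 2 (0.0562), mock 3 (0.115), WT 1 (0.101), WT 2 (0.0868) or A384T 2 (0.0535). In A384T over mock it was lost in 8 of 11, without any 1 of the 3 mock arrays, WT 2, A384T 1, A384T 2, R397W 1 or R397W 2 (0.0591 to 0.143). With the block, both calls were kept in 11 of 11 such fits (highest adjusted p = 0.0107 and 0.0145). Mcm5 had 3 probe sets, at 1.95, 1.77 and 0.25 in WT over mock, of which the first and the second were called when each probe set was tested on its own (adjusted p = 0.0316 and 0.0153).

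The other MCM subunits differed less. Mcm4 stood at 0, -0.94 and 0.09 in mock, at 0.79, -0.47 and 0.49 with WT FoxP3, at -0.28, 0.70 and -0.18 with A384T and at 0.15 and -0.08 with R397W. Its groups overlapped, mock 2 was the lowest of all arrays on this probe set (and at 0 on the other), and the difference of WT from mock was 0.55 ± 0.38 (limma adjusted p = 0.689). Mcm6 was at 0.52 ± 0.37, Mcm2 at 0.27 ± 0.22, Mcm7 at 0.11 ± 0.28 and Mcm3 at 0.04 ± 0.27 in WT over mock, none of them called with or without the block. The probe sets of Mcm4, Mcm7, Mcm2, Gins2, Rrm2, Rfc2 and Pold1 used here have names that the array maker gives to probe sets that can match more than 1 transcript.

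Of the 4 genes that activate the helicase, the GINS subunits Gins1 and Gins2 were called in WT over mock with the block, and limma called 0 of 4 without it (1 at an unadjusted p under 0.05). Gins2 stood at 0, 0.13 and -0.08 in mock, at 1.37, 0.76 and 0.47 with WT FoxP3, at 1.54, 0.71 and 0.32 with A384T and at 0.10 and 0.08 with R397W. The 6 WT and A384T arrays were above all mock and R397W arrays. The differences from mock were 0.85 ± 0.30 with WT and 0.84 ± 0.30 with A384T (limma adjusted p = 0.212 and 0.22, and 0.017 and 0.0191 with the block). The blocked calls were lost without mock 1 (0.0802 and 0.0923), WT 1 (0.102, WT over mock), WT 3 (0.058, WT over mock) or A384T 1 (0.0993, A384T over mock).

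Gins1 stood at 0.17, 0 and -0.27 in mock, at 1.95, 0.26 and 0.34 with WT FoxP3, at 1.20, 0.45 and 0.27 with A384T and at -0.03 and -0.39 with R397W. WT 1 stood well above WT 2 and WT 3, which themselves lay just above mock 1. The difference of WT from mock was 0.88 ± 0.41 (limma adjusted p = 0.431, and 0.0357 with the block, lost without mock 1, mock 3, WT 1, WT 3 or A384T 1, at 0.0542 to 0.173). Cdc45, which bridges MCM and GINS, was at 0.76 ± 0.41 and 0.79 ± 0.41 in WT and A384T over mock, and Mcm10 was at 0.66 ± 0.45 and 0.46 ± 0.45. Neither was called, and with the block Cdc45 had adjusted p = 0.0646 and 0.0543.

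DNA polymerase alpha and primase make the RNA-DNA primers, and limma called 0 of their 4 genes in any comparison, with or without the block. In WT over mock 0 of them had an unadjusted p under 0.05, and 2 did with the block. Pola1, the catalytic subunit, stood at -0.07, 0 and 0.06 in mock, at 1.53, 0.20 and 0.09 with WT FoxP3, at 0.90, 0.40 and 0.04 with A384T and at 0.09 and -0.28 with R397W. Prim2, the large primase subunit, stood at 0.78, -0.36 and 0 in mock, at 1.21, 0.22 and 0.28 with WT FoxP3, at 0.86, 0.26 and 0.35 with A384T and at 0.71 and -0.04 with R397W. For both genes the array numbered 1 was the highest of the WT and of the A384T group, and for Prim2 also of the mock and R397W groups. The differences of WT from mock were 0.61 ± 0.35 and 0.43 ± 0.35, with limma adjusted p = 0.574 and 0.763, and 0.166 and 0.0535 with the block. Prim1, the catalytic primase subunit, was at 0.26 ± 0.44. Pola2, the accessory subunit, was at -0.08 ± 0.24, and its 3 probe sets were all below 0 in WT over mock.

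Polymerase epsilon extends the leading strand and polymerase delta the lagging strand, and their 4 genes did not move together. Pole, the catalytic subunit of polymerase epsilon, stood at 0, 0.24 and 0 in mock, at 2.32, 0.67 and 0.40 with WT FoxP3, at 2.17, 0.87 and 0.17 with A384T and at 0.40 and 0.10 with R397W. The arrays numbered 1 of the WT and A384T groups lay above 2, and A384T 3 lay within the mock range. The differences were 1.05 ± 0.54 and 0.99 ± 0.54 (limma adjusted p = 0.497 and 0.523, and 0.0803 and 0.0983 with the block), so that a 2.07-fold mean difference did not pass the test.

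Pole2, a second subunit of polymerase epsilon, stood at 0.45, -0.13 and 0 in mock, at 0.67, -0.52 and 0.06 with WT FoxP3, at 0.19, -0.69 and -0.65 with A384T and at 0.66 and 0.14 with R397W. It did not follow Pole, and its difference from mock was -0.04 ± 0.33 with WT and -0.49 ± 0.33 with A384T (limma adjusted p = 0.993 and 0.65). Pold1 and Pold2, subunits of polymerase delta, were at 0.01 ± 0.30 and 0.00 ± 0.12 in WT over mock, with intervals (95%) of -0.66 to 0.67 and -0.28 to 0.28.

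PCNA is the ring that holds polymerases on DNA, and the Rfc1 to Rfc5 subunits load it. Pcna stood at 0, 0.06 and -0.28 in mock, at 0.46, 0.07 and 0.06 with WT FoxP3, at 0.25, 0.02 and 0.08 with A384T and at -0.11 and -0.03 with R397W. Its groups overlapped and its difference of WT from mock was small, 0.27 ± 0.14 (1.21-fold, limma adjusted p = 0.516, and 0.239 with the block).

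Rfc3 was the clamp loader gene called with the block. It stood at 0.22, 0 and -0.37 in mock, at 1.58, 0.55 and 0.58 with WT FoxP3, at 1.6, 0.53 and 0.03 with A384T and at 0.39 and 0.01 with R397W. The WT arrays did not overlap with mock, whereas A384T 3 lay within the mock range. The differences were 0.96 ± 0.39 and 0.77 ± 0.39 (limma adjusted p = 0.329 and 0.472, and 0.00717 and 0.023 with the block). The blocked call was lost without WT 3 in WT over mock (0.0504), and without mock 1 (0.124) or A384T 1 (0.122) in A384T over mock. Rfc4 was at 0.69 ± 0.38, Rfc5 at 0.31 ± 0.19, Rfc2 at 0.21 ± 0.21 and Rfc1 at 0.15 ± 0.42 in WT over mock. On the Rfc1 probe set used here the arrays numbered 1 were the lowest within each of the 4 groups, at -0.76, -0.47, -0.65 and -1.23. The other 2 Rfc1 probe sets did not share this order, and on 1 of them number 1 was the highest in WT (0.25), A384T (0.44) and R397W (0.10).

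Fen1 trims the flap at the end of an Okazaki fragment, and Lig1 seals the nick. Lig1 stood at 0, 0.04 and -0.13 in mock, at 2.07, 0.77 and 0.50 with WT FoxP3, at 1.88, 0.57 and 0.28 with A384T and at 0.48 and -0.15 with R397W. All WT and A384T arrays were above all mock arrays. The differences were 1.14 ± 0.46 and 0.94 ± 0.46 (2.21-fold and 1.91-fold, limma adjusted p = 0.315 and 0.45, and 0.0145 and 0.0393 with the block). The first blocked call was lost without WT 1 (0.0922), and the second without mock 1, WT 2, WT 3, A384T 1, A384T 3, R397W 1 or R397W 2 (0.0518 to 0.202).

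Fen1 stood at -0.97, 0.08 and 0 in mock, at 0.76, 0.81 and 0.53 with WT FoxP3, at 0.70, 0.80 and 0.14 with A384T and at -0.83 and 0.04 with R397W. On this probe set mock 1 and R397W 1 were the lowest arrays and WT 1 did not stand above WT 2. On the other Fen1 probe set number 1 was the highest of every group, as for Lig1 in WT and A384T, at 0.17, 0 and -0.11 in mock, at 1.15, 0.56 and 0.29 with WT FoxP3, at 1.23, 0.52 and 0.39 with A384T and at 0.26 and 0.05 with R397W. The differences from mock were 1.00 ± 0.31 with WT and 0.84 ± 0.31 with A384T (limma adjusted p = 0.152 and 0.256, and 0.022 and 0.0493 with the block). The first blocked call was lost without mock 1, mock 2, WT 1 or WT 3 (0.0619 to 0.13), and the second in all but 2 of the 11 fits without 1 array, those without mock 3 or A384T 3 (highest 0.243).

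Rpa1 and Rpa2 are subunits of the protein that covers single-stranded DNA, and they differed from each other. Rpa2 stood at -0.13, 0.31 and 0 in mock, at 0.46, 0.50 and 0.13 with WT FoxP3, at 0.73, 0.78 and 0.45 with A384T and at -0.10 and 0.24 with R397W. The A384T arrays lay above all mock arrays and the WT arrays overlapped with them. Its difference from mock was 0.59 ± 0.17 with A384T (limma adjusted p = 0.106, and 0.00911 with the block, lost without mock 1 at 0.0597 or A384T 1 at 0.0591) and 0.31 ± 0.17 with WT (0.532, and 0.161 with the block). Rpa1 was at -0.09 ± 0.12 in WT over mock and -0.21 ± 0.12 in A384T over mock, and its 3 A384T arrays, at -0.10, -0.07 and -0.43, lay below all mock arrays.

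Deoxynucleotides are made by ribonucleotide reductase (Rrm1 and Rrm2), thymidylate synthase (Tyms) and thymidine kinase (Tk1), while Dut keeps dUTP out of DNA. Rrm2, the subunit whose level limits the enzyme in S phase, stood at 0.39, -0.53 and 0 in mock, at 3.01, 1.10 and 1.45 with WT FoxP3, at 2.58, 1.42 and 0.45 with A384T and at 0.70 and -0.11 with R397W. All WT arrays lay above mock and R397W, and A384T 3 lay just above mock 1 and below R397W 1. The differences from mock were 1.90 ± 0.59 with WT and 1.53 ± 0.59 with A384T (3.73-fold and 2.88-fold, limma adjusted p = 0.145 and 0.282, and 0.00173 and 0.00674 with the block). Both blocked calls were kept in 11 of 11 fits without 1 array (highest 0.0148 and 0.0491). Without all arrays numbered 1 they were lost, at 1.54 (adjusted p = 0.0577) and 1.20 (0.139).

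Tk1 stood at 0.18, 0 and -0.28 in mock, at 2.82, 0.99 and 0.67 with WT FoxP3, at 2.84, 1.15 and 0.52 with A384T and at 0.11 and 0.03 with R397W. The 6 WT and A384T arrays lay above the 5 others, and the arrays numbered 1 stood apart within their groups. The differences from mock were 1.52 ± 0.62 and 1.54 ± 0.62 (2.88-fold and 2.90-fold, limma adjusted p = 0.323 and 0.312, and 0.0162 and 0.0159 with the block). The blocked calls were lost without mock 1 (0.0762 and 0.0763), WT 1 (0.0982, WT over mock) or A384T 1 (0.0951, A384T over mock). Without all arrays numbered 1 both were kept, each at 0.97 (0.0212 and 0.0252).

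Rrm1, the large reductase subunit, stood at 0.08, 0 and -0.43 in mock, at 1.02, 0.03 and 0.30 with WT FoxP3, at 1.07, 0.43 and 0.25 with A384T and at 0.12 and 0.01 with R397W. A384T lay above all mock arrays, and WT 2 lay within the mock range. The differences were 0.57 ± 0.28 with WT and 0.70 ± 0.28 with A384T (limma adjusted p = 0.461 and 0.298, and 0.0612 and 0.0231 with the block, the last lost without mock 1, mock 3 or A384T 1 at 0.0844 to 0.123). Tyms was at 0.20 ± 0.18 and 0.25 ± 0.18, and Dut at 0.06 ± 0.22 and -0.39 ± 0.22, with neither called by either fit.

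Ccne1 and Ccne2 encode cyclin E, the partner of Cdk2 at entry into S phase. Ccne1 had the lowest difference from mock of the members in both WT and A384T, of which 5 and 8 lay below 0. It stood at 0.12, 0 and -0.58 in mock, at -0.15, -0.97 and -0.85 with WT FoxP3, at -0.22, -0.98 and -1.32 with A384T and at -0.15 and -0.32 with R397W. The groups overlapped through mock 3. At each title number, though, the WT and A384T arrays lay below the mock array, as did R397W at numbers 1 and 2 (differences of -0.27 and -0.32). The other Ccne1 probe set did not show this at number 1, with WT 1 at 0.41 and A384T 1 at 0.53 against mock 1 at 0.31, and its difference in A384T over mock was -0.14 (limma adjusted p = 0.587 with the block, each probe set tested on its own). On the probe set used here the difference from mock was -0.50 ± 0.31 with WT (limma adjusted p = 0.62, and 0.0811 with the block) and -0.69 ± 0.31 with A384T (0.385, and 0.02 with the block, lost without mock 2, A384T 2 or A384T 3 at 0.0638 to 0.102). Ccne2 was at 0.24 ± 0.18 with WT and 0.39 ± 0.18 with A384T, called by neither fit.

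Uhrf1, which brings the maintenance DNA methyltransferase to newly copied DNA, stood at -0.06, 0.66 and 0 in mock, at 2.35, 0.94 and 1.00 with WT FoxP3, at 2.07, 1.13 and 0.66 with A384T and at 0.38 and 0.45 with R397W. All WT arrays lay above mock, mock 2 was the highest mock array, and A384T 3 met it. The differences were 1.23 ± 0.43 and 1.09 ± 0.43 (limma adjusted p = 0.209 and 0.292, and 0.0331 and 0.0572 with the block). The blocked call in WT over mock was lost without mock 1, mock 3, WT 1 or WT 3 (0.0518 to 0.179). E2f1 itself, an activating E2F, stood at 0.02, 0 and -0.19 in mock, at 0.11, -0.04 and -0.26 with WT FoxP3, at 0.67, 0.40 and -0.04 with A384T and at -0.13 and -0.22 with R397W. Its difference from mock was -0.01 ± 0.17 with WT and 0.40 ± 0.17 with A384T (limma adjusted p = 0.998 and 0.372, and 0.987 and 0.0508 with the block).

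**Figure D2:**
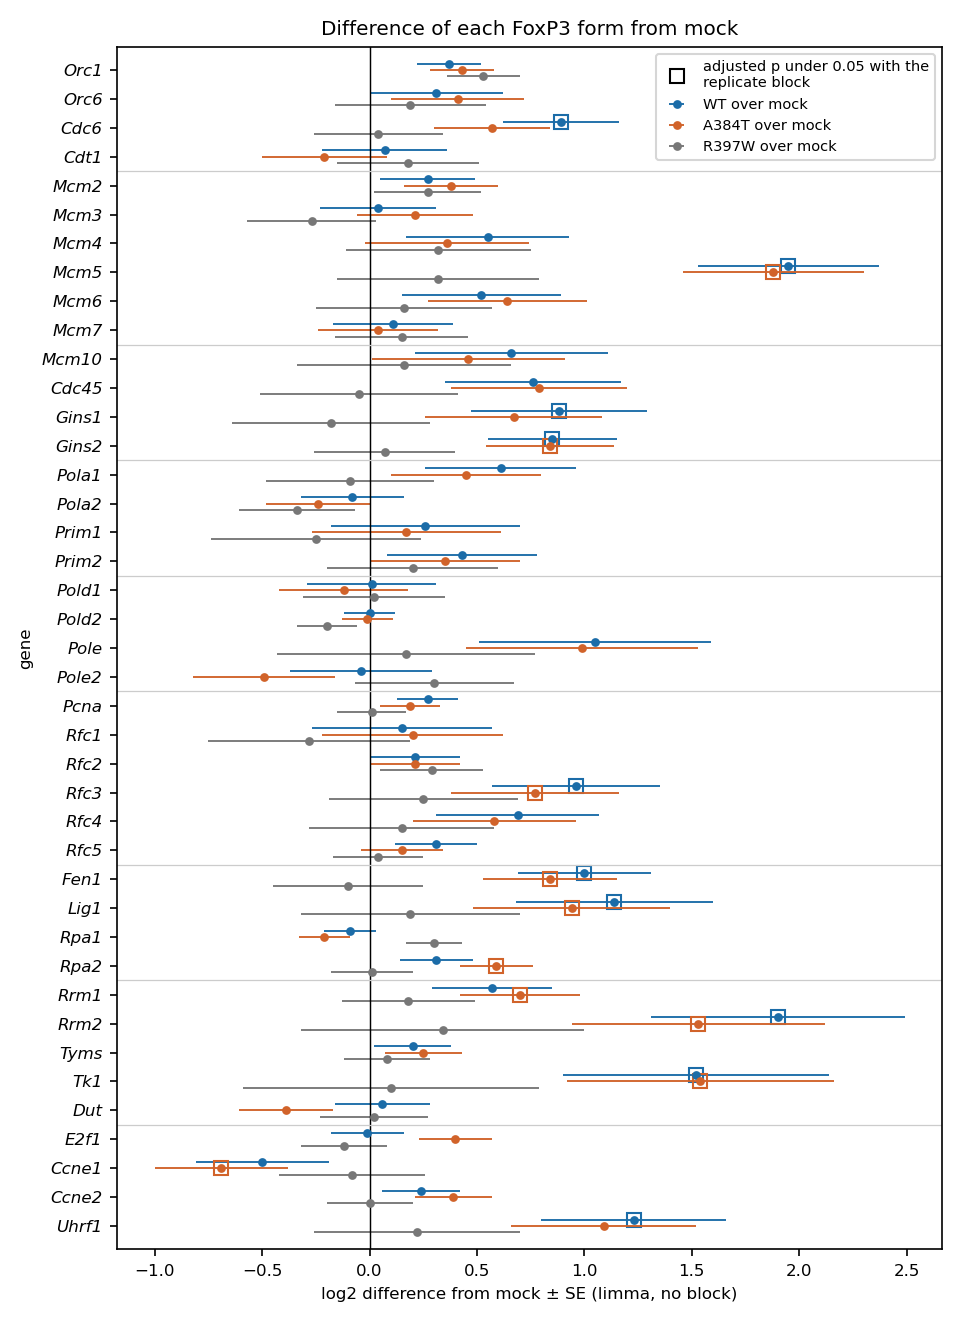
Log2 difference from mock (points) with its SE (bars, limma without block) for each of the 41 genes, in WT (blue), A384T (orange) and R397W (grey), where open squares mark an adjusted p under 0.05 in the fit with the replicate block. Mcm5, at 1.95 and 1.88, and Rrm2, at 1.90 and 1.53, lie farthest to the right, Ccne1 lies to the left of 0, and no R397W point has a square.

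Setting each array against the mock array of its own number gave the same picture over the whole group. The median difference over the 41 genes was 0.60, 0.16 and 0.23 for WT at numbers 1, 2 and 3, and 0.69, 0.43 and 0.14 for A384T. For R397W it was 0.10 and 0.01, while the median over all genes stayed between -0.04 and 0.02 in all 8 pairs of arrays. WT was above mock at 3 of 3 numbers for 28 of the 41 genes (20.4% of all genes), and its groups did not overlap with mock, WT being higher, for 15 (8.33% of all genes). A384T was above mock at 3 of 3 numbers for 23 (17.6% of all genes) and higher without overlap for 13 (8.1% of all genes). R397W was above mock at 2 of 2 numbers for 18 of 41 (24.0% of all genes).

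The largest differences fell at number 1. WT 1 was at least 1 log2 unit above mock 1 for 17 genes, WT 2 above mock 2 for 2 and WT 3 above mock 3 for 3, where 2.62%, 2.17% and 1.45% of all genes were. For A384T these counts were 15, 4 and 1 (2.86%, 2.66% and 1.23% of all genes), and for R397W 0 and 0. Mcm5 had the largest difference at numbers 1 and 3 for WT and A384T, and Rrm2 at number 2, at 1.63 for WT and 1.95 for A384T. Ccne1 had the lowest value at numbers 1 and 2 for both.

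**Figure D3:**
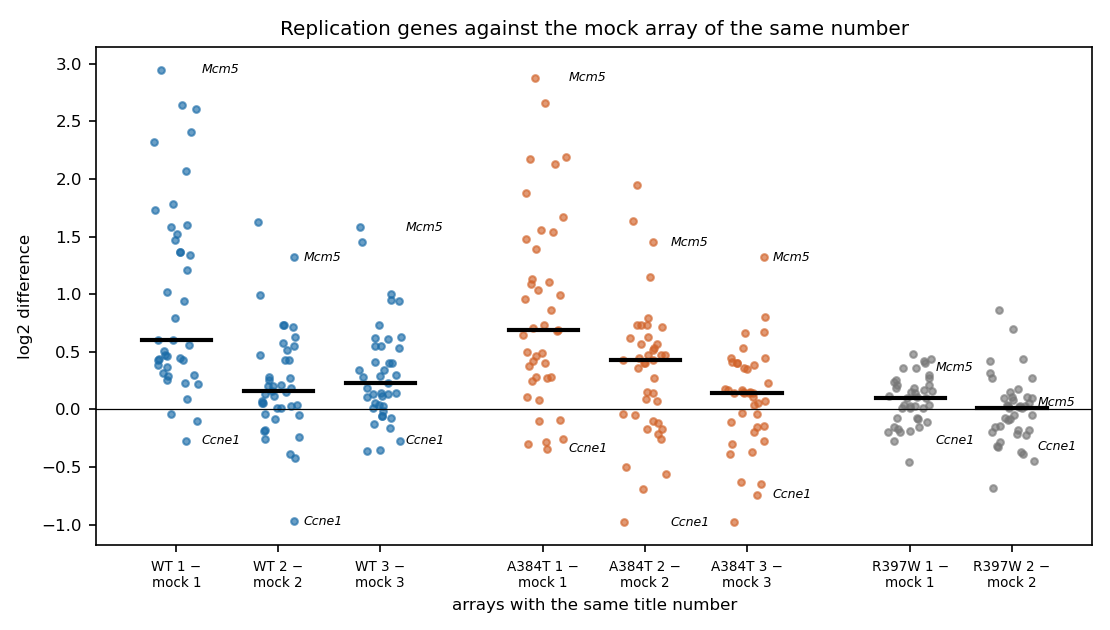
Log2 difference of each replication gene (points) between an array and the mock array with the same title number, for WT (blue), A384T (orange) and R397W (grey), with the median over the 41 genes as a black line. The medians are 0.60, 0.16 and 0.23 for WT, 0.69, 0.43 and 0.14 for A384T and 0.10 and 0.01 for R397W, and Mcm5 and Ccne1 are labelled.

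Within the groups, the arrays numbered 1 carried higher values of most members. The array numbered 1 was the highest of its group in both WT and A384T for 33 of the 41 genes (21.4% of all genes), and in all 4 groups for 19 (12.7% of all genes). WT 1 was the highest of the 11 arrays for 19 genes and A384T 1 for 13, together 32 (20.7% of all genes). The array numbered 1 exceeded the mean of the others of its group by a median of 0.76 over the 41 genes in WT and 0.73 in A384T, but by 0.10 in mock and 0.14 in R397W, against 0.01 to 0.02 over all genes. The gap was widest for Tk1, at 1.99 in WT and 2.01 in A384T against 0.32 in mock and 0.08 in R397W. Pole had gaps of 1.78 and 1.65 against -0.12 and 0.30. The replicate block assumes an equal shift per number in every group, which these unequal gaps between WT or A384T and mock do not meet. On the probe sets used here, Pola2 and Rfc1 were lower on the array numbered 1 in both WT and A384T, as were Orc1 in WT (-0.03) and Mcm4 in A384T (-0.54). For Pola2, Rfc1 and Mcm4, 1 other probe set each had number 1 as the highest array of both groups. By role, the median gap in WT ran from 0.12 for Okazaki fragment maturation and single-strand binding to 1.25 for helicase activation. What the title numbers stand for is not stated, and the part that a batch tied to them has in these values was not tested.

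The comparison of A384T with WT FoxP3 asks whether the substitution changes what FoxP3 does, and for the replication genes no difference was called. In limma 0 of 41 members were called by the fit without the block (0.17% of all genes) and 0 with it (0.874% of all genes), with 1 and 4 members at an unadjusted p under 0.05, where 738 and 1540 of the 18193 genes were. The median difference was -0.08, with 27 of 41 genes lower in A384T. For Mcm5 the difference was -0.07 ± 0.42, with an interval (95%) of -1.0 to 0.87, for Rrm2 -0.37 ± 0.59 (-1.68 to 0.93) and for Tk1 0.01 ± 0.62 (-1.37 to 1.39). These intervals hold changes of more than 1.5-fold in either direction for Mcm5 and Tk1, so the data do not show that both forms act alike on these genes. E2f1 had the smallest unadjusted p in the fit without the block, 0.41 ± 0.17 higher with A384T (limma adjusted p = 1, and 0.209 with the block). Dut and Pole2 were at -0.45 ± 0.22 and -0.45 ± 0.33.

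Cells with R397W FoxP3 had lower values of the leading genes than the other FoxP3 groups, a difference called only with the block and resting on 2 R397W arrays, numbered 1 and 2. In R397W over WT, 0 of 41 members were called (2.52% of all genes, limma), with 7 at an unadjusted p under 0.05, where 2006 of the 18193 genes were. With the block 9 were called, all lower in R397W (8.03% of all genes). These 9 were Cdc6, Fen1, Gins1, Gins2, Lig1, Mcm5, Rfc3, Rrm2 and Tk1. Mcm5 was at -1.63 ± 0.47 (limma adjusted p = 0.138), and at -1.90 ± 0.34 with the block (3.72-fold lower, 0.00537). Rrm2 was at -1.79 ± 0.34 (0.0076) and Tk1 at -1.77 ± 0.40 (0.0192) with the block, against -1.56 ± 0.66 (0.401) and -1.42 ± 0.69 (0.511) without it. The blocked count became 0 without R397W 1, 2 without WT 1, 4 without R397W 2 and 14 without mock 1, against 2.93%, 4.3%, 3.36% and 7.9% of all genes. The 2 without WT 1 lie near that background. Without all arrays numbered 1, which left only R397W 2 in its group, Mcm5 was at -1.37 with the block. R397W over WT and WT over mock share the WT arrays, so their lists do not support each other.

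In R397W over A384T, 0 of 41 members were called (2.27% of all genes, limma), with 6 at an unadjusted p under 0.05, where 2074 of the 18193 genes were. With the block, 8 were called (8.03% of all genes), of which E2f1, Gins1, Gins2, Mcm5, Rpa2, Rrm2 and Tk1 were lower in R397W and Pole2 was higher. Pole2, at 0.66 and 0.14 with R397W against 0.19, -0.69 and -0.65 with A384T, was 0.72 ± 0.17 higher with the block (adjusted p = 0.0221), and 0.79 ± 0.37 without it (0.466). E2f1 was -0.63 ± 0.13 with the block (0.0132). The blocked count became 0 without R397W 1, 2 without A384T 1, 2 without R397W 2 and 16 without mock 1, against 2.69%, 4.11%, 3.41% and 7.89% of all genes. The counts of 2 lie near these backgrounds. Without all arrays numbered 1, which left only R397W 2 in its group, Mcm5 was at -1.30 with the block.

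R397W itself lay close to mock over the group. Its members ranged from -0.34 ± 0.27 for Pola2 to 0.53 ± 0.17 for Orc1 against mock. Mcm5 was at 0.32 ± 0.47 (interval of -0.73 to 1.36), Rrm2 at 0.34 ± 0.66 (-1.12 to 1.80) and Tk1 at 0.10 ± 0.69 (-1.44 to 1.64). These intervals are wide, and they do not show that R397W left the genes unchanged. With the block the median over the members moved from 0.10 to -0.05, with 15 of 41 above 0 in place of 30.

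The probe sets of a gene mostly pointed the same way. Among the 32 members with several probe sets, all were above 0 in WT over mock for 21, all below 0 for 3 (Ccne1, Pola2 and Rpa1) and mixed for 8. When each of the 34945 probe sets was tested on its own, 4 of the 91 member probe sets were called in WT over mock (3.21% of all probe sets) and 3 in A384T over mock (2.7%). With the block these counts were 15 (8.66%) and 17 (8.36%). The 4 belonged to Mcm5, which had 2, to Rrm2 (1.68, limma adjusted p = 0.0469) and to Uhrf1, whose second probe set stood at 0, 0.30 and -0.41 in mock and at 0.82, 0.84 and 0.88 with WT FoxP3 (0.88, adjusted p = 0.0182). The 3 in A384T over mock belonged to Mcm5, again with 2, and to Rpa2. On that second Uhrf1 probe set WT 1 did not stand above WT 2 and WT 3, unlike on the first. No member had probe sets called in opposite directions.

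Other genes of the same processes were read from lists that hold none of the 41. Of 36 further fork and origin genes, 2 were called higher in WT over mock (3.62% of all genes) and 1 in A384T over mock (3.17%). With the block 5 were called higher and 1 lower in each, against 10.2% and 10.1% of all genes. Orc4, an origin recognition subunit, rose with WT FoxP3 (0.85 ± 0.15, limma adjusted p = 0.0103), and Rnaseh2b, a subunit of the enzyme that removes RNA from DNA, rose with WT (0.55 ± 0.13, 0.0418) and with A384T (0.71 ± 0.13, limma adjusted p = 0.013). Orc4 stood at 0.97, 0.62 and 1.08 with WT FoxP3 and Rnaseh2b at 0.64, 0.49 and 0.35, so that WT 1 did not stand apart in either. Of 30 E2F, RB, cyclin and inhibitor genes, 2 were called higher in WT over mock and 1 in A384T over mock. With the block 7 were higher in WT over mock, and 4 were higher and 1 lower in A384T over mock. The shares of all genes are those given for the fork and origin genes. Cdk6, a kinase that acts on the retinoblastoma protein, rose with WT (0.96 ± 0.21, limma adjusted p = 0.0305) and A384T (1.12 ± 0.21, 0.0158). Cdkn1c, an inhibitor of cyclin-dependent kinases, rose with WT (0.70 ± 0.10, 0.00257) and was lower with R397W than with WT (-1.05 ± 0.11, 0.00077).

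Lists without a called gene in WT over mock were nucleotide and folate synthesis (20 genes), checkpoint and repair (16) and mitosis (15). They held 6, 2 and 7 genes at an unadjusted p under 0.05 in limma, where 2279 of the 18193 genes were. With the block they held 4 higher and 1 lower, 1 higher, and 8 higher, in that order, against 10.2% of all genes. The 1 of 16 checkpoint and repair genes does not exceed that share. In WT over mock without the block, Nme1 had the smallest p of the nucleotide list (0.54 ± 0.14, limma adjusted p = 0.065, and 0.0106 with the block). Chek1 had that of the checkpoint list (0.73 ± 0.27, 0.255, and 0.0373 with the block). In A384T over mock the smallest p of the nucleotide list was that of Mthfd2, a mitochondrial folate enzyme (0.82 ± 0.20, limma adjusted p = 0.0635, and 0.00356 with the block). Mthfd2 was lower in R397W than in A384T (-1.03 ± 0.23, 0.0482). Fancd2, of the Fanconi anaemia repair pathway, was at 0.62 ± 0.21 in A384T over mock (0.194, and 0.013 with the block). Birc5, the mitotic protein survivin, stood at 0.62, -0.28 and 0 in mock, at 3.62, 1.76 and 2.01 with WT FoxP3, at 3.03, 2.30 and 0.77 with A384T and at 0.64 and -0.44 with R397W. As for Rrm2 and Tk1, number 1 was the highest array of the WT and A384T groups. Without the block Birc5 was at 2.35 ± 0.62 in WT over mock (limma adjusted p = 0.0767), and with the block it was at 2.35 ± 0.31 (0.000632). Cenpa, the centromeric histone, ran the other way in A384T over mock (-1.14 ± 0.33, 0.116, and 0.0163 with the block).

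The mitosis list moved by number more than the replication genes did. Its median over 15 genes was 2.49, 0.63 and 0.48 with WT FoxP3, 1.93, 0.49 and 0.12 with A384T, 0.34 and -0.01 with R397W and 0.26, 0 and -0.02 in mock. The array numbered 1 exceeded the others of its group by a median of 1.94 in WT and 1.49 in A384T, against 0.76 and 0.73 for the 41 replication genes. In WT this gap was 0.51 for the further fork and origin genes (33 of 36 higher on number 1) and 0.41 for checkpoint and repair (13 of 16). It was 0.06 and 0.07 for the E2F and cyclin list and the nucleotide list. For the further fork and origin genes the gap in R397W, 0.41 (30 of 36), was no smaller than in A384T, 0.38 (25 of 36), and it was 0.15 in mock. For checkpoint and repair it was 0.30 in R397W, 0.32 in A384T and 0.08 in mock.

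**Figure D4:**
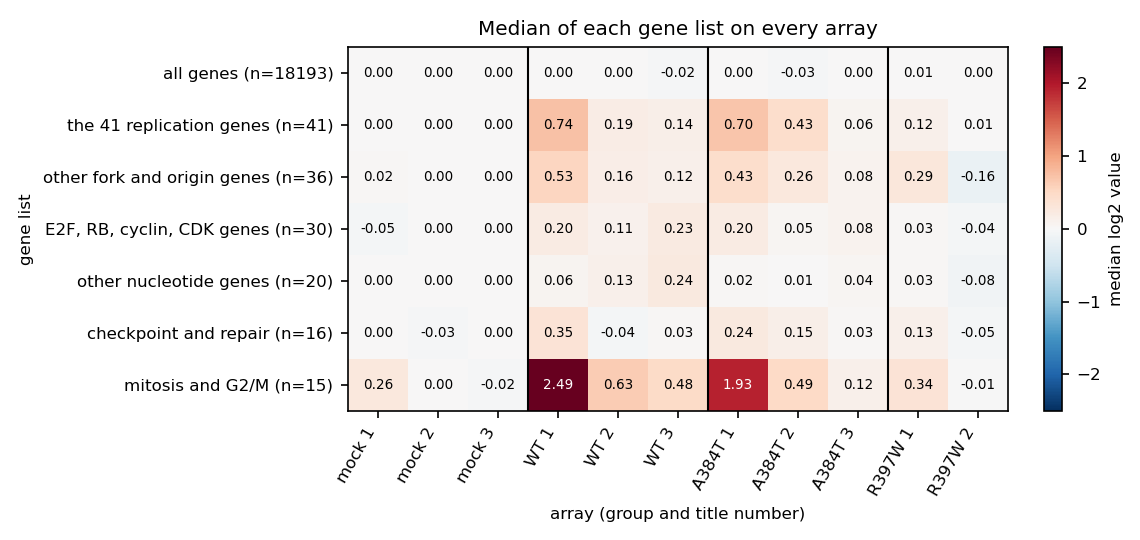
Median log2 value over the genes of each list (rows, with the number of genes) on each array (columns), relative to the mock median, as colour and as printed number. The mitosis genes reach 2.49 on WT 1 and 1.93 on A384T 1, the 41 replication genes 0.74 and 0.70, and the 7 rows plotted lie between -0.16 and 0.34 on the R397W arrays.

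Markers of other cells that the culture could hold, from the irradiated spleen cells or from an incomplete sort, were read beside these results. Of 5 B cell, 4 CD8 and NK cell and 4 erythroid markers, limma called 0 in any comparison by either fit. In WT over mock 0 of these had an unadjusted p under 0.05, and 1 B cell marker did with the block. Of 8 macrophage and dendritic markers Adgre1 was called, lower with A384T than in mock (-1.13 ± 0.20, limma adjusted p = 0.0111) and higher with R397W than with A384T (1.19 ± 0.22, 0.02). Of 9 T cell markers, against mock Cd2 was higher with WT (0.62 ± 0.11, 0.00932) and A384T (0.61 ± 0.11, 0.0113), and Cd28 was lower with A384T (-0.96 ± 0.16, 0.0103). Of all genes 3.62% and 3.17% were called in these 2 comparisons. With the block, Cd247 was also higher (0.53 ± 0.12, limma adjusted p = 0.0167) and Zap70 lower (-0.52 ± 0.11, 0.0097) in WT over mock, where 10.2% of all genes were called. The median difference of these 5 lists from mock lay between -0.13 and 0.03 with WT and A384T, and their part in the values of the replication genes was not tested.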

How the data were processed

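RNA of 11 cell samples was read on 1 Affymetrix array each. The authors deposited log2 values, and the submitters' processing notes name RMA without a version. At all 45101 probe sets the median of the 3 mock arrays was exactly 0. No source at hand states that centring or the log base, and base 2 was taken, as RMA gives. A single symbol was listed for 34958 probe sets, several for 932 and none for 9211. Among them 13 controls were left out, and 1 probe set that names Tyms beside another gene was not used. Each of 18193 genes was fitted with limma 3.58.1 (R 4.3.3), 1 mean per group over all 11 arrays (7 residual degrees of freedom), and called at a Benjamini-Hochberg adjusted p under 0.05 over all genes of a contrast. A gene was read from its most variable probe set, which favours larger differences. Tables and figures used Python 3.11.15, pandas 2.3.3 and matplotlib 3.10.9. The fit without the block was tested in WT over mock on simulated data that held no effect of the title number. The blocked and other fits were not tested in this way.

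The replicate block rests on a check of the title numbers over all genes. Deviations from the group means correlated at 0.143 to 0.761 in all 15 pairs of arrays with the same number. In the 30 other pairs they correlated at -0.735 to 0.368, and the numbers were taken to pair the arrays. Such deviations cancel out within a group, which lowers the other pairs, and the R397W arrays mirror each other. The pairs numbered 1 were the highest (0.609 to 0.761). WT 2 correlated more with mock 2 (0.524) than with mock 3 (-0.0221), but A384T 2 less (0.143 against 0.302). The check therefore does not settle that numbers 2 and 3 pair the arrays. The blocked fit has 5 residual degrees of freedom and assumes that the shift of a number is equal in every group.

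The members, the gene lists and the tests were chosen with earlier results of these data known. All members are named; values on every array are given for the 2 members of each role with the largest moderated t in WT over mock and for every called member, and values of Rpa2, Rrm1, E2f1 and the second Uhrf1 probe set were added after the blocked results were seen. Of each other list, up to 3 called genes with the largest difference are named, or the 1 with the smallest p; the text gives part of these. Alternatives were other blocks, priors, groups in the fit, probe set rules, centring and arrays left out.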

Additional observations from a re-analysis of the deposited data

How the results depend on the processing

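The number of members called is the result that moved most. It was 1 for each of WT and A384T over mock and 0 in the other comparisons. With the replicate block it was 10 (WT over mock), 10 (A384T over mock), 9 (R397W over WT) and 8 (R397W over A384T). With the number as a random block (correlation 0.287) it was 4, 2, 1 and 3 in that order, where 7.04%, 6.67%, 4.88% and 4.92% of all genes were called. The blocked fit without the arrays numbered 1, chosen after seeing the data, gave 2 in each of WT and A384T over mock (3.53% and 2.8% of all genes). A trended and robust prior gave 0 for both WT and A384T over mock (1.83% and 1.35%), as did leaving out the arrays numbered 1 (2.16% and 1.42%), and fitting only the 2 groups of the comparison gave 0 in A384T over mock (1.89%). The mean of all probe sets of a gene gave 3, 2 and, in R397W over A384T, 2 members (4.82%, 4.15% and 2.85%), and testing every probe set gave 4 and 3 probe sets (3.21% and 2.7% of all probe sets). Leaving out each array in turn, without the block, gave 0 to 2 in WT over mock (2.21% to 3.72% of all genes). In A384T over mock it gave 0 to 1 (1.9% to 2.94%). With the block, chosen after seeing the data, it gave 3 to 12 in WT over mock (6.22% to 11.8% of all genes). In A384T over mock the blocked range was 3 to 13 (6.03% to 10.3%). For the comparisons of R397W with WT and A384T, fits that left 1 R397W array are not counted here. In R397W over WT the others gave 0 without the block (1.5% to 2.63% of all genes) and 2 to 14 with it (4.3% to 9.42%). In R397W over A384T they gave 0 without the block (1.37% to 2.26%) and 2 to 16 with it (4.11% to 9.72%). In R397W over mock and A384T over WT the number of members called was 0 in all of these fits. The median difference over the members kept its sign in WT and A384T over mock in the 11 fits without 1 array (0.14 to 0.44 and 0.23 to 0.57), but in A384T over WT it ran from -0.33 to 0.22. Signal over background could not be read from centred values. The cause of these shifts was not tested.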
